A study of Mus musculus with 24 samples.

Results

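The 4 Id genes of the mouse, Id1, Id2, Id3 and Id4, were examined for the places where the pausing factor NELF and the elongation factor SPT5 were found on chromatin. The members were every deposited peak that overlapped a fixed window of 11 to 13 kb around each gene on the mm10 build, whatever its strength. This gave 62 peaks of 1811308 in the 6 peak lists, 14 at Id1, 13 at Id2, 17 at Id3 and 18 at Id4. The peaks came from chromatin immunoprecipitation followed by sequencing (ChIP-seq) of E14 cells, an established mouse embryonic stem cell line, kept in serum with LIF. All cells carried the genotype labelled Nelfb deg, and the 6 libraries used have the treatment label Control. The headers of the SPT5 lists name their ChIP and input samples wt, which the labels do not explain. They comprise 2 of NELFB:HA, pulled down through the HA tag on NELFB, and 2 of NELFE, both proteins of the NELF complex, besides 2 of SPT5, which belongs to DSIF. The other 18 of the 24 samples, among them 7 given 500 nM dTAG-13, a degrader compound, for 30 min, and 10 labelled naïve, 2i or EpiLC, were not analysed here. The labels do not say whether libraries of one antibody came from separate cultures, so any spread between them may be technical.

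ID proteins are helix-loop-helix proteins without a DNA-binding basic region. They pair with E proteins such as TCF3 and TCF12 and keep them from binding DNA. BMP ligands act through type I and type II receptors that phosphorylate SMAD1, SMAD5 and SMAD9, and Id genes are among the best known targets of these SMADs. In mouse embryonic stem cells kept in serum and LIF, induction of Id genes by BMP is known to help hold back differentiation. NELF and DSIF both bind RNA polymerase II shortly after initiation and take part in its pausing. NELF leaves when the polymerase is released, whereas SPT5 travels on with it through the gene.

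The promoters of 3 of the 4 genes are shown, since Id1 had no entry in the start site table used. At all 4 genes the strongest peaks lay over the 5′ end. At Id3 these peaks began 172 to 408 bp before the start, so some covered only part of the 250 bases printed below. RefSeq (GRCm38.p6) gives Id2 on chromosome 12 from 25093799 to 25096092 on the minus strand, Id3 on chromosome 4 from 136143822 to 136145392 on the plus strand, and Id4 on chromosome 13 from 48261116 to 48266028 on the plus strand. Id1 lies on chromosome 2 from 152736251 to 152737410 and is transcribed towards higher coordinates. The 250 bases before each start are printed 5′ to 3′ on the strand of the gene, from chr12:25096093-25096342, chr4:136143572-136143821 and chr13:48260866-48261115. Capitals mark GGCGCC (the core of a GC-rich SMAD element), CCAAT or GGGCGG (a GC box), on either strand.
Id2: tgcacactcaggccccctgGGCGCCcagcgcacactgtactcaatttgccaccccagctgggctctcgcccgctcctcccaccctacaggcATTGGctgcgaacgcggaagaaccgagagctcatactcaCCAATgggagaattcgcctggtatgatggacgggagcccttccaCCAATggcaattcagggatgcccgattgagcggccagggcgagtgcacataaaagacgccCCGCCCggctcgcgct
Id3: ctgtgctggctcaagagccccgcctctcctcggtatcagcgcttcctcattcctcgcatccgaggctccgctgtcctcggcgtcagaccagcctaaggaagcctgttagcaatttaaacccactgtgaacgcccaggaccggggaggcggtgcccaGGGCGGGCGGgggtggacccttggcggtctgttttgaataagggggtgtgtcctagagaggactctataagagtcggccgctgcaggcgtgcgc
Id4: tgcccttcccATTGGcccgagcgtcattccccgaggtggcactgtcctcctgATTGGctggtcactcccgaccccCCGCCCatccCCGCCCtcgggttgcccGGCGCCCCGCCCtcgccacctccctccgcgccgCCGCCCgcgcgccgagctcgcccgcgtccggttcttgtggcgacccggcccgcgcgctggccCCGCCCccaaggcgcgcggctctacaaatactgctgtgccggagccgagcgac

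GGCGCC had 1 match at Id2, beginning 231 bp before the start, and 1 at Id4, 148 bp before it. It had none at Id3, and 9.59% of the 32817 RefSeq promoters of this length held it. CCAAT had 3 matches at Id2 and 2 at Id4 against 33.8% of all promoters with any. GGGCGG had 1 match at Id2, 2 overlapping ones at Id3 and 5 at Id4, against 32.7% of all promoters with any. The short SMAD core GTCT was in 82.9% of all promoters, with 1 match at Id2, 2 at Id3 and 0 at Id4. Neither TATAAA (12.4% of all promoters) nor the E-box CACGTG (6.02%) had a match in the 3 windows. All 3 promoters were rich in G and C, at 62.8% in Id2 and in Id3 and 75.6% in Id4, where the median of all promoters was 52.4%. The sequence CG occurred 18, 18 and 35 times, against a median of 6.

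The lists behind these peaks differ in depth and length. Libraries held 27324697 to 62312558 filtered ChIP tags, and lists 137102 to 462153 peaks. The median fold enrichment of a list lay between 1.64 and 1.87, so most entries are weak. A peak is called strong here where the deposited q-value was 0.01 or less. This held for 2.97% and 1.85% of the NELFB:HA lists, 5.52% and 5.42% of the NELFE lists and 1.51% and 6.08% of the SPT5 lists. SPT5 was sequenced with tags of 100 and 101 bp against 1 common input, and NELF with tags of 50 bp, so for SPT5 against NELF the antibody and the sequencing batch cannot be told apart and no value within a batch exists. Among 5 genes that mark embryonic stem cells, Pou5f1, Sox2 and Zfp42 had a strong peak within 1 kb of a start site in both replicates of every antibody, whereas Nanog and Esrrb did not reach this with any antibody. Over all protein-coding genes, 29.4% met this with every antibody. Of 6 markers of other lineages, Cdx2 and Neurog2 were in the start site table and neither had such a peak. With both ends of each gene counted instead, Gata6 met it with NELFE, and the other markers of other lineages met it with no antibody. Binding is not expression, so this checks the label only in part.

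Every Id gene had its strongest peak, the one with the highest pileup (mean ChIP coverage) in the window, over the 5′ end of the gene in every library. This held in 24 of 24 cases of gene and library. In 23 of the 24 that peak was strong, the exception being Id4 in the second NELFB:HA library. The windows were placed around the genes, and 4657 of 5873 regions strong in all 6 libraries lay over a start site. Of 17491 protein-coding genes, 29.4% had a strong peak within 1 kb of a start site in both replicates of all 3 antibodies. Of the 62 peaks in the windows 28 were strong, with folds over input of 2.39 to 6.71. The 34 weak ones had folds of 1.45 to 2.33. Folds, pileups and q-values are the values of the authors' peak caller.

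**Figure D1:**
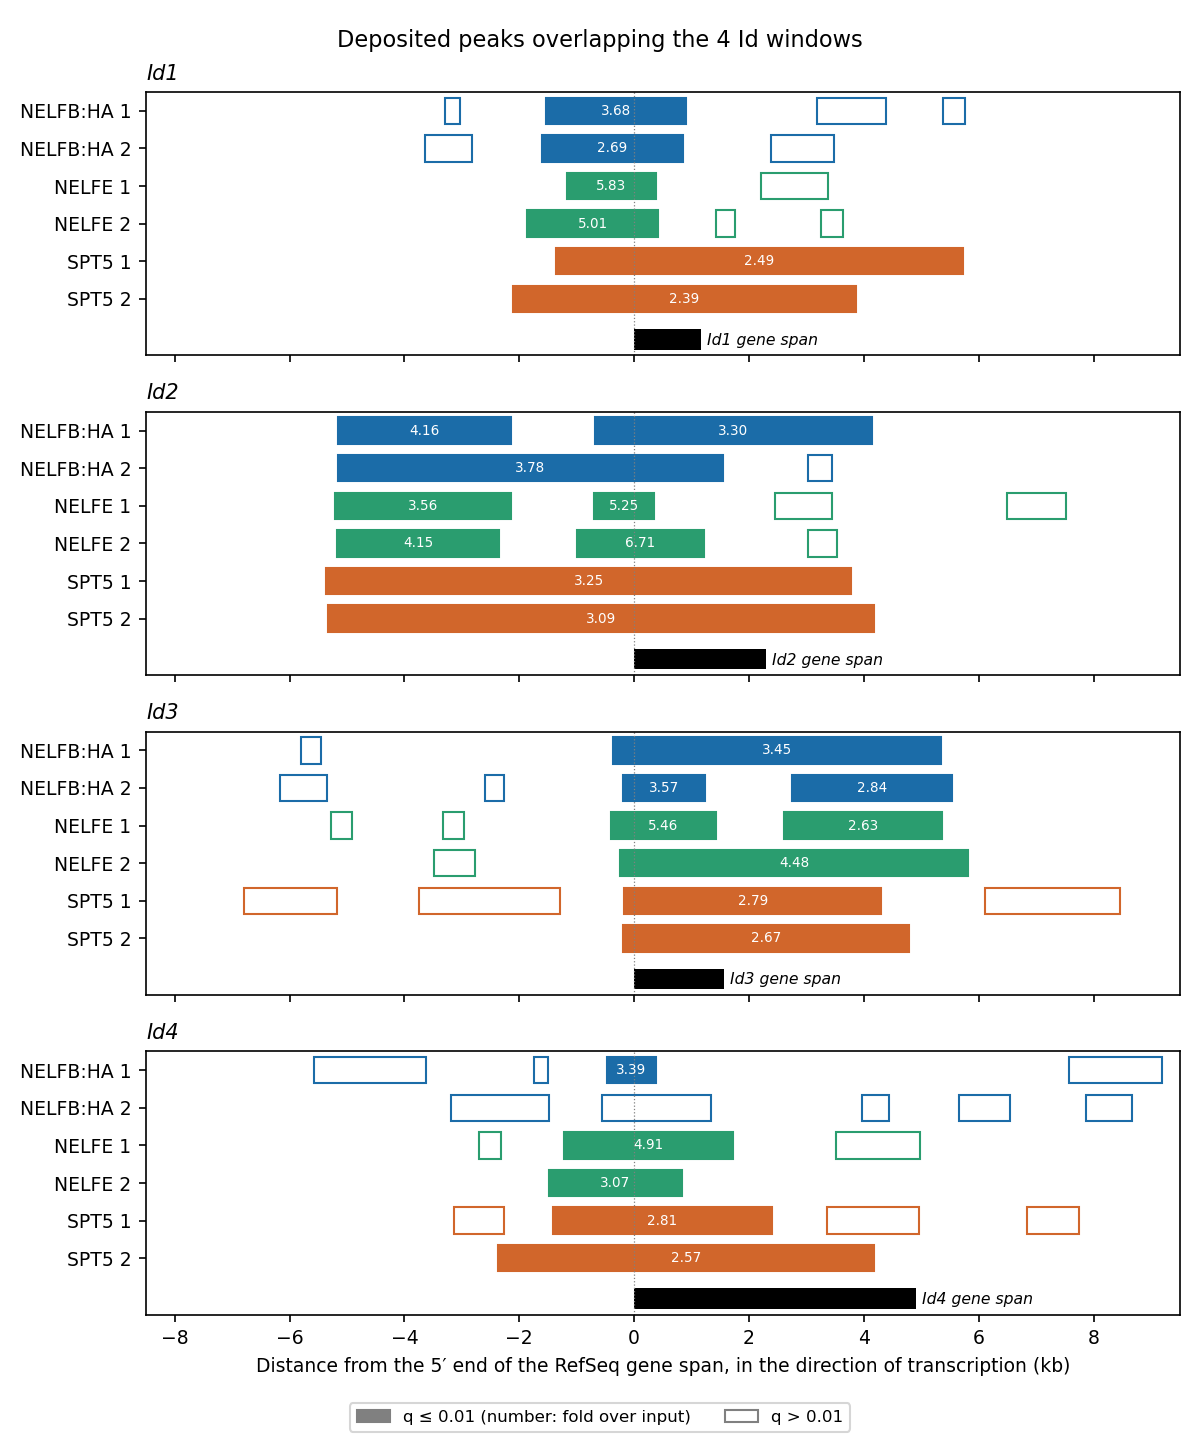
Deposited peaks over the 4 Id windows, 1 row per library, by distance in kb from the 5′ end of the RefSeq gene span (black bar). Filled boxes have q of 0.01 or less and carry their fold over input, open boxes do not. At Id1, Id2 and Id3 both strong SPT5 peaks run past the gene's 3′ end. The gene peaks of the first NELFB:HA library at Id2 and Id3 and of the second NELFE library at Id3 do so too. At Id2 a separate strong site lies upstream in 3 of the 4 NELF libraries.

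Id1 had 1 strong peak per library, over the 5′ end, and the SPT5 peaks ran further downstream than the NELF peaks. NELFB:HA peaks ran from 152734718 to 152737152 and from 152734652 to 152737098. NELFE peaks ran from 152735083 to 152736629 and from 152734385 to 152736670. All 4 stopped short of the 3′ end of the gene, by 258 and 312 bp in NELFB:HA and by 781 and 740 bp in NELFE. The SPT5 peaks ran from 152734895 to 152741972 and from 152734137 to 152740120, which is 4562 and 2710 bp past the 3′ end. Fold over input was 3.68 and 2.69 in NELFB:HA, 5.83 and 5.01 in NELFE, and 2.49 and 2.39 in SPT5. The peaks ranked 6535 and 5931 by pileup in the NELFB:HA lists, 4764 and 6740 in the NELFE lists and 5831 and 6144 in the SPT5 lists. A stretch of 1547 bp, from 152735083 to 152736629, was strong in all 6 libraries and spans the 5′ end of the gene. Beyond the 3′ end, 127 bp from 152739505 to 152739631 lay under a peak of every library. There the SPT5 signal was part of the long gene peak, while the 4 NELF libraries had separate weak peaks with folds of 1.64, 2.12, 2.18 and 1.71.

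Id2 had a pair of strong sites, over its 5′ end and upstream of it. In NELFE they were separate in both libraries. The first NELFE library had a peak of 1056 bp at the 5′ end, from 25095740 to 25096795 with a fold of 5.25, and one of 3060 bp upstream, from 25098245 to 25101304 with a fold of 3.56. The second had 2207 bp from 25094885 to 25097091 (fold 6.71) and 2831 bp from 25098442 to 25101272 (fold 4.15). By pileup the 5′ peaks ranked 2555 and 3450 in these lists, higher than those of the other Id genes, and the upstream peaks 8569 and 8600. The first NELFB:HA library also separated the sites, with 4816 bp over the whole gene from 25091956 to 25096771 and 3009 bp from 25098239 to 25101247. There the upstream site had the higher fold, 4.16 against 3.30, and nearly the same pileup, 24.98 against 25.83. The second NELFB:HA library held both sites in 1 peak of 6715 bp from 25094542 to 25101256, with a fold of 3.78. SPT5 covered both sites and the gene in 1 peak per library, 9139 bp from 25092315 to 25101453 and 9521 bp from 25091911 to 25101431, with folds of 3.25 and 3.09.

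A pair of stretches at Id2 was thus strong in all 6 libraries. One, of 1032 bp from 25095740 to 25096771, holds the start site and the promoter printed above. The other, of 2559 bp from 25098442 to the window's edge at 25101000, lies 2350 to 4908 bp upstream of the start. RefSeq places no gene other than Id2 in this window, so the upstream site overlaps no annotated gene there. The SPT5 peaks also went 1484 and 1888 bp past the 3′ end of Id2. In NELFB:HA the peak over the gene went 1843 bp past that end in the first library and stopped 743 bp short of it in the second. The 5′ NELFE peaks stopped 1941 and 1086 bp short of it.

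Id3 also had a pair of strong sites, but the further one lay downstream of the gene. The second NELFB:HA library had 1427 bp over the gene from 136143629 to 136145055 (fold 3.57) and 2788 bp from 136146576 to 136149363 (fold 2.84). The first NELFE library had 1840 bp from 136143414 to 136145253 (fold 5.46) and 2755 bp from 136146428 to 136149182 (fold 2.63). These downstream peaks began 1184 and 1036 bp beyond the gene's 3′ end. The other replicate of each subunit held both sites in 1 peak, 5720 bp from 136143449 to 136149168 in the first NELFB:HA library (fold 3.45) and 6062 bp from 136143581 to 136149642 in the second NELFE library (fold 4.48). SPT5 also had 1 peak over both, 4477 bp from 136143650 to 136148126 and 4965 bp from 136143634 to 136148598, with folds of 2.79 and 2.67. These SPT5 peaks ended 2734 and 3206 bp past the gene's 3′ end. The joined NELFB:HA and NELFE peaks ended further out, 3776 and 4250 bp past it. Whether a NELF library gave 1 or 2 peaks thus differed between replicates of the same antibody, and its lengths with it.

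The ranks by pileup of the peak over Id3 were 6531 and 4413 in NELFB:HA, 4902 and 6007 in NELFE, and 5654 and 6367 in SPT5. Both sites were strong in all 6 libraries, over 1406 bp from 136143650 to 136145055 and over 1551 bp from 136146576 to 136148126. Upstream edges of the gene peak lay close together, 172 to 408 bp before the start site in all 6 libraries. The long noncoding RNA gene Gm42329, from 136138595 to 136142218, also lies in this window. Only weak peaks overlapped it, with folds of 1.45 to 1.85.

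Id4 was the lowest of the 4 genes by pileup rank in 5 of 6 libraries, the first NELFB:HA library being the exception. By fold it was the lowest in 3. Its peak in the first NELFB:HA library covered 853 bp from 48260637 to 48261489 (fold 3.39, rank 5848). In the second it covered 1905 bp from 48260557 to 48262461 with a fold of 1.98 and rank 9360, and its q-value of 0.108 left it weak. NELFE peaks covered 2936 bp from 48259894 to 48262829 (fold 4.91, rank 7113) and 2321 bp from 48259631 to 48261951 (fold 3.07, rank 8238). SPT5 peaks covered 3814 bp from 48259702 to 48263515 (fold 2.81, rank 7306) and 6560 bp from 48258737 to 48265296 (fold 2.57, rank 8913). Unlike at the shorter Id genes, these SPT5 peaks did not reach the 3′ end, ending 2513 and 732 bp short of it. No base of the window was strong in all 6 libraries, and 853 bp around the start were strong in 5. RefSeq gives the long noncoding RNA gene A330033J07Rik on the opposite strand from 48044231 to 48262623, so it overlaps the 5′ part of Id4. The libraries are nonstranded ChIP, and polymerases on either strand cannot be told apart there.

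Peak length was the one measure tested between antibodies, since pileup depends on the depth of a library. Length too differed between libraries of one antibody. Strong SPT5 peaks had a median length of 2900 bp in the first library (27324697 tags) and 2191 bp in the second (62312558 tags). Whether depth affected length was not tested. The question was whether SPT5 extended further at the Id genes than NELF did. At Id1 the strongest peaks were 2435 and 2447 bp long in NELFB:HA, 1547 and 2286 bp in NELFE, and 7078 and 5984 bp in SPT5. The means were 2441 ± 8.49 bp, 1917 ± 523 bp and 6531 ± 774 bp (SD, n = 2 each), and both SPT5 values lay above all 4 NELF values. At Id2 the means were 5766 ± 1343 bp in NELFB:HA, 1632 ± 814 bp in NELFE and 9330 ± 270 bp in SPT5 (SD, n = 2 each). Here too SPT5 lay above every NELF value, and NELFB:HA lay above NELFE, its peaks taking in the gene body or the upstream site. At Id4 they were 1379 ± 744 bp, 2629 ± 435 bp and 5187 ± 1942 bp in the same order (SD, n = 2 each), with both SPT5 values again the longest. At Id3, NELFB:HA with 3574 ± 3036 bp and NELFE with 3951 ± 2985 bp straddled SPT5 with 4721 ± 345 bp (SD, n = 2 each).

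**Figure D2:**
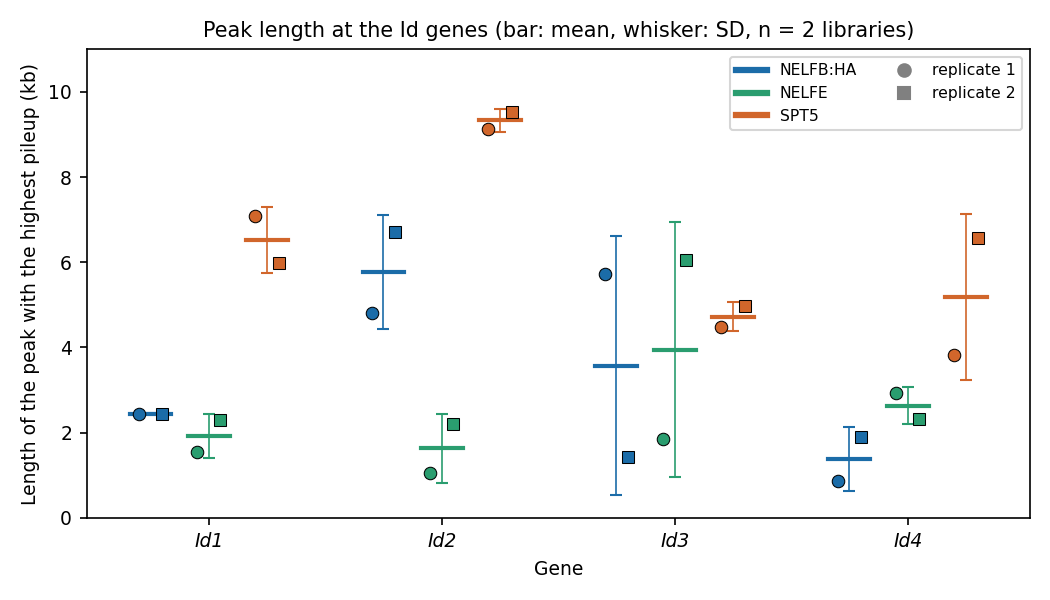
Length in kb of the peak with the highest pileup at each Id gene, by antibody, with circles for replicate 1, squares for replicate 2, bars for the mean and whiskers for the SD (n = 2 libraries). Both SPT5 peaks are longer than all 4 NELF peaks at Id1, Id2 and Id4, while at Id3 the NELF values span 1427 to 6062 bp and enclose those of SPT5.

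The mean of NELFE minus that of SPT5 was -4614.5 bp at Id1, -7698.5 bp at Id2 and -2558.5 bp at Id4, larger in size than the pooled SDs of 660, 606 and 1407 bp. For NELFB:HA minus SPT5 it was -4090, -3564.5 and -3808 bp at the same genes, larger in size than pooled SDs of 547, 969 and 1470 bp. Each of these 6 comparisons had a two-sided exact permutation p of 0.333, below which a design of 2 against 2 cannot go, and an adjusted p of 0.444 (Benjamini-Hochberg over 12 comparisons of gene and antibody pair). At Id3 the differences, -770 bp for NELFE minus SPT5 and -1147.5 bp for NELFB:HA minus SPT5, lay within pooled SDs of 2125 and 2160 bp (exact p of 1, adjusted p of 1). NELFB:HA exceeded NELFE by 524.5 bp at Id1 (pooled SD 370 bp) and by 4134 bp at Id2 (pooled SD 1110 bp). At Id4 it was shorter, with a mean difference of -1249.5 bp (pooled SD 609 bp). Each of these 3 had an exact permutation p of 0.333 and an adjusted p of 0.444. At Id3 the difference between the NELF subunits, -377.5 bp, lay within its pooled SD of 3011 bp (exact p of 0.667, adjusted p of 0.8). Without replicate 1 or 2 of both antibodies, NELFB:HA minus NELFE was 161 and 888 bp at Id1 and -416 and -2083 bp at Id4, NELFE minus SPT5 was -4239 and -878 bp at Id4, and all 3 differences at Id3 took opposite signs. These values match libraries by number, which marks no pairs. For NELFB:HA minus NELFE at Id3 the opposite signs depend on that matching. With all peaks in the window summed, NELFB:HA minus NELFE at Id4 turned to 1653 bp.

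At Id2 the differences depended on counting 1 peak per library, since 3 NELF libraries had a further strong peak upstream. With strong peaks summed over the window, NELFE came to 4577 ± 652 bp, NELFB:HA to 7270 ± 785 bp and SPT5 to 9330 ± 270 bp at Id2 (SD, n = 2 each). NELFE minus SPT5 was then -4753 bp, NELFB:HA minus SPT5 -2060 bp and NELFB:HA minus NELFE 2693 bp. With weak peaks summed as well, these were -3488, -1849.5 and 1638.5 bp. In that sum NELFB:HA minus SPT5 was -2218 bp at Id1 and -1657.5 bp at Id4, and NELFB:HA minus NELFE was 1454 bp at Id1. SPT5 was the longest on average at every Id gene in the sum of all peaks. At Id3 that sum was 7936.5 ± 4202 bp in SPT5, 5716 ± 498 bp in NELFB:HA and 6045.5 ± 1036 bp in NELFE (SD, n = 2 each), with a wide spread in SPT5.

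These lengths were set beside 5873 regions with a strong peak in all 6 libraries, which are 44.9% of 13088 regions merged from the strong peaks. Both SPT5 peaks were longer than both NELFE peaks in 39.1% of them and longer than both NELFB:HA peaks in 30.9%. At the Id genes this held for 3 of 4 in each comparison. The reverse, both SPT5 peaks shorter, was seen in 9.3% of the regions against NELFE and 13.9% against NELFB:HA, and at none of the 4 Id genes. Both NELFE peaks were shorter than both NELFB:HA peaks in 25.1% of the regions and longer in 10.8%, which held for Id1 and Id2 and for Id4 respectively. The median ratio of mean SPT5 length to mean NELFE length was 1.41 over the regions. It was 3.41 at Id1, above 89.6% of the regions, and 5.72 at Id2, above 97.0%. The ratio at Id2 counts the 5′ NELFE peak alone, and with the strong upstream peak added it was 2.04. It was 1.97 at Id4, above 70.9%, and 1.19 at Id3, above 39.8%. Against NELFB:HA the ratios were 2.68, 1.62, 1.32 and 3.76 at Id1, Id2, Id3 and Id4, above 86.8%, 67.7%, 56.6% and 93.5% of the regions. With 4 genes these are descriptions, and they do not set the Id genes apart.

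**Figure D3:**
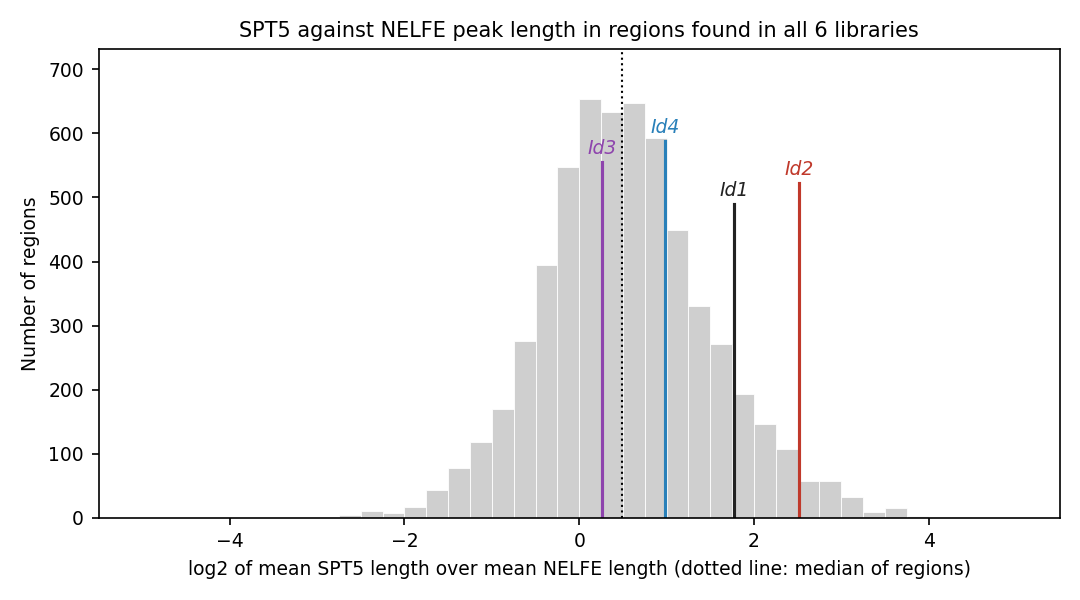
Number of regions (grey bars, 5873 regions with a strong peak in all 6 libraries) by log2 of the mean SPT5 length over the mean NELFE length, with the Id genes as coloured lines whose height has no meaning and the median as a dotted line. Id1 and Id2 lie in the upper part of the distribution, Id4 above the median and Id3 below it.

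By pileup the strongest peaks of the Id genes stood in the top 0.908% to 6.501% of their full lists, which are mostly weak entries. Their folds were also set against the 5873 regions, a stricter group that was chosen for strong peaks in all 6 libraries and to which Id4 does not belong. In 22 of the 24 cases of gene and library, the fold of the strongest peak lay below the median fold of the same list over those 5873 regions. The medians were 5.32 and 4.13 in NELFB:HA, 6.29 and 6.58 in NELFE, and 3.21 and 3.12 in SPT5. Both exceptions were at Id2, in the second NELFE library, with 52.0% of the regions lower, and in the first SPT5 library, with 51.9%. The share of regions with a lower fold ran from 7.42% to 42.6% over the libraries at Id1 (median 12.1%), from 8.51% to 52.0% at Id2 (median 44.6%), from 11.6% to 36.4% at Id3 (median 24.3%) and from 0% to 27.0% at Id4 (median 14.2%). The 0% belongs to the weak Id4 peak of the second NELFB:HA library. A fold is a mean over the whole peak, so peaks that differ in length are averaged over different stretches.

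**Figure D4:**
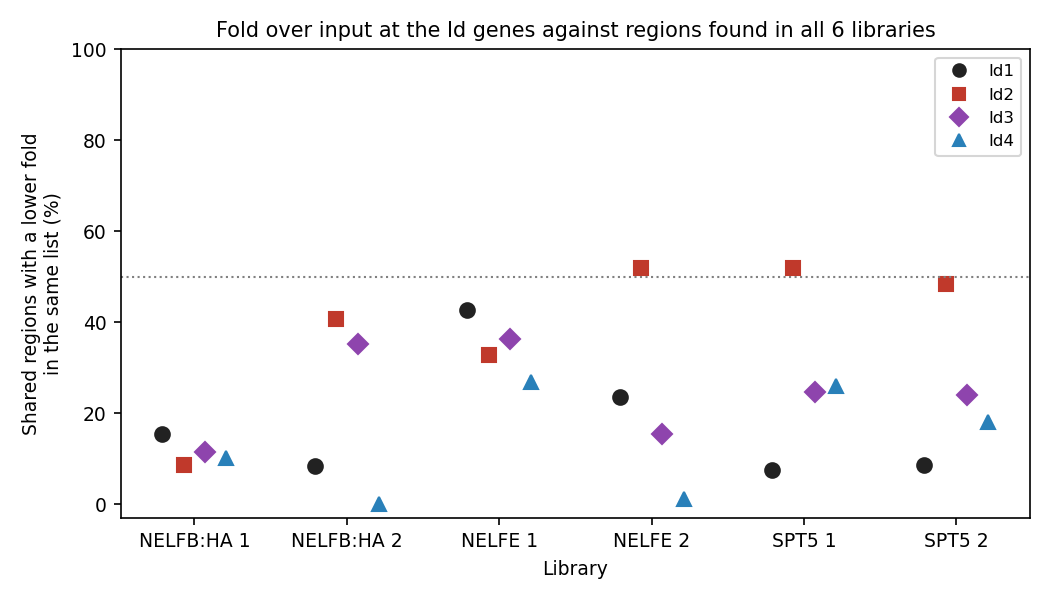
Percent of the 5873 regions whose fold in the same list lies below that of the Id gene, by library, with the dotted line at the median region (50). Id2 lies near that line in the second NELFE and both SPT5 libraries, and no Id gene goes above 52.0%.

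The order of the genes within a list varied between libraries. Ranked by pileup, Id2 came first of the 4 in both NELFE and both SPT5 libraries, Id3 in the second NELFB:HA library and Id4 in the first. An order within a list is not changed by scaling for the depth of the library. Whether depth affected the extent of peaks, and so their order, was not tested. Like the fold, however, pileup is a mean over the whole peak, so peaks of different length are averaged over different stretches. In the first NELFB:HA library the peak was 853 bp long at Id4 and 4816 bp at Id2. Id4 came last in 5 libraries and Id2 in the first NELFB:HA library. In that library the ranks ran only from 5848 to 6572, so its order separates the genes little. Outside the second NELFB:HA library, Id1 and Id3 took the places between, in either order. By fold, Id2 came first in 4 libraries and Id1 in 2. Id4 came last by fold in 3, Id1 in both SPT5 libraries and Id2 in the first NELFB:HA library.

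Regions resembling each member were picked by the smallest mean difference, over 6 libraries, in the percentile of pileup and of length within the list. For Id1 they were chromosome 5 from 137291666 to 137299031, over Ache, Ufsp1 and Srrt (mean difference 1.10 percentile points), and chromosome 17 from 70832857 to 70839793 (1.19). For Id2 they were chromosome 15 from 76902568 to 76910320, over the ribosomal protein gene Rpl8 (1.02), and chromosome 4 from 21867719 to 21882297, over Pnisr and Coq3 (1.10). For Id3 they were chromosome 17 from 24694496 to 24700116, over Gfer and Noxo1 (0.769), and chromosome 4 from 108615279 to 108624451, over Orc1 and Cc2d1b (1.07). Id4 resembled chromosome 15 from 74666166 to 74675027, over the immediate-early gene Arc (1.70), and chromosome 11 from 82868706 to 82872987, over Rffl and Rad51d (1.80). The region of Rpl8 shared with Id2 short NELFE peaks (1004 and 2237 bp) beside long SPT5 peaks (6485 and 6047 bp), but its NELFE folds of 15.4 and 9.17 were higher. No region was another BMP gene of the list below.

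The rest of the BMP pathway was read from a list of 25 genes, of which 17 were in the start site table. A gene was counted for an antibody where both replicates had a strong peak within 1 kb of a start site. This held for 8 of 17 with NELFB:HA, 10 with NELFE and 6 with SPT5. Over 17491 protein-coding genes the shares were 36.6%, 42.9% and 31.3%. The list's shares were higher with each antibody, most with NELFE, but this rests on 17 genes and was not tested. Id2 and Id3 met this with every antibody, and Id1 was not in the start site table. Id4 met it with NELFE and SPT5 but not with NELFB:HA, for which 1 replicate was weak. With all 3 antibodies it was met by 6 of 17 (29.4% of all genes), namely the receptors Bmpr1a, Bmpr2 and Acvr2a, the signal transducers Smad1 and Smad5, and the ubiquitin ligase Smurf2.

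Of 4 ligand genes, Bmp4 and Bmp6 were in the start site table, and both had strong NELFE peaks without strong SPT5. With both ends of each gene counted, Bmp2 and Bmp7 met the count with no antibody. Over all protein-coding genes NELFE also met the count more often than SPT5, at 42.9% against 31.3%. The share of all genes with strong NELFE but not SPT5 was not counted, so this does not set the ligands apart. Bmp4 had folds of 2.70 and 3.24 in NELFE against 1.97 and 1.70 in SPT5, and 2.21 (weak) and 2.80 (strong) in NELFB:HA. Bmp6 had 3.58 and 3.29 in NELFE, 2.08 and 1.83 in SPT5, and 2.35 (strong) and 2.45 (weak) in NELFB:HA. Of the type I receptors, Bmpr1a had folds of 4.57 and 4.69 in NELFB:HA, 6.66 and 6.37 in NELFE and 3.55 and 3.72 in SPT5, all strong. Bmpr1b and Acvr1, also type I receptors, had no strong peak in any library. The type II receptor Bmpr2 had 4.99 and 3.79, 4.84 and 3.85, and 3.23 and 3.31 in the same order. Acvr2a, a type II receptor shared with activins, had 4.40 and 4.46, 3.64 and 7.63, and 3.99 and 4.82.

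Among the transducers, Smad5 had the higher folds, 5.65 and 5.33 in NELFB:HA, 10.1 and 10.8 in NELFE and 4.95 and 4.06 in SPT5. Smad1 had 4.17 and 3.40, 4.60 and 5.86, and 3.10 and 3.14. Smad9 had no strong peak, with folds of 1.56 to 1.82 where a peak was listed. The inhibitor Smad6, itself a BMP target, was weak in all 6 libraries with folds of 1.70 to 2.39. Smurf2, which marks SMADs and receptors for degradation, had 8.91 and 3.999 in NELFB:HA, 10.97 and 16.1 in NELFE, and 4.15 and 5.28 in SPT5. Msx1, a homeobox gene and BMP target, had strong NELF peaks (2.93 and 3.19 in NELFB:HA, 2.86 and 4.59 in NELFE) and weak SPT5 peaks (1.48 and 1.46). The Id2 and Id3 peaks had higher folds than Msx1 in both SPT5 lists, both NELFB:HA lists and the first NELFE list. In the second NELFE list Msx1 (4.59) stood between Id3 (4.48) and Id2 (6.71). Id1 was above Msx1 in 5 lists and below it in the second NELFB:HA list, at 2.69 against 3.19. Id4 was above it in 4 lists and below it in the second NELFB:HA list, at 1.98, and the second NELFE list, at 3.07.

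**Figure D5:**
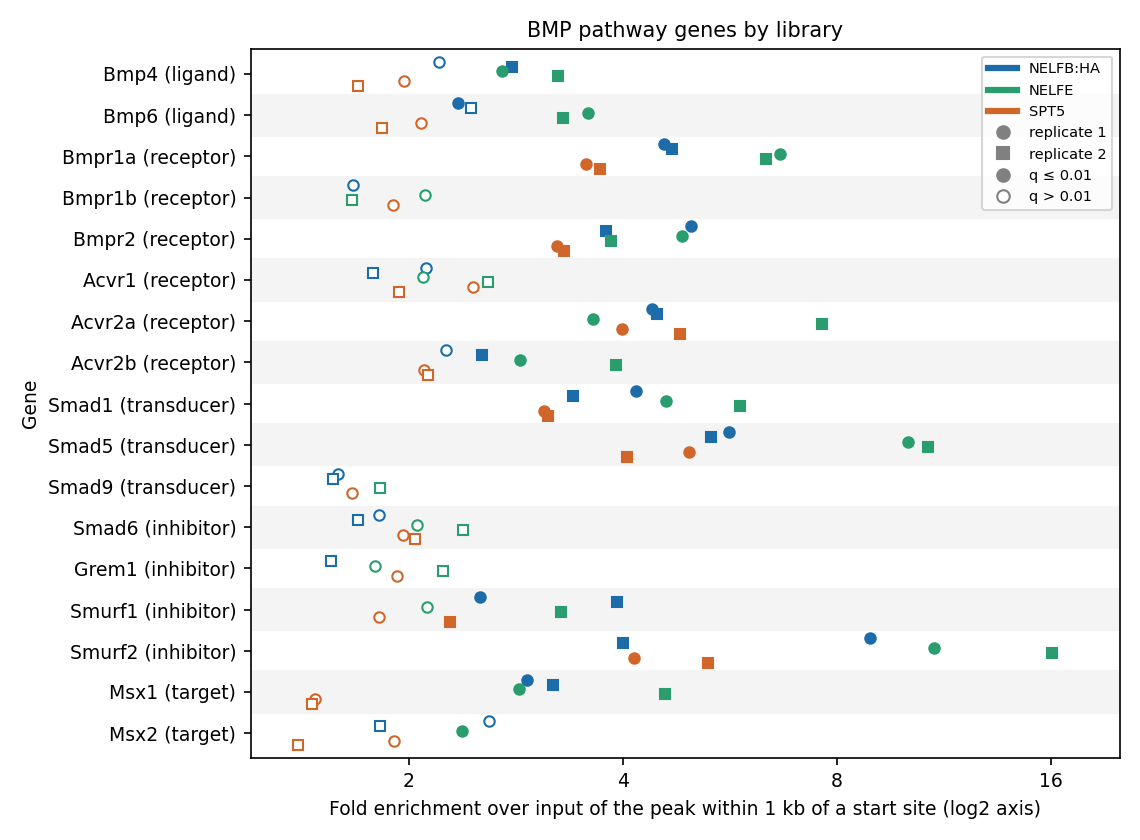
Fold over input (log2 axis) of the peak with the highest pileup within 1 kb of a start site, for the 17 BMP pathway genes in the start site table, by antibody (colour) and replicate (circle or square), filled where q is 0.01 or less. Smad5 and Smurf2 reach the highest NELFE folds, and Bmp4, Bmp6, Acvr2b and Msx1 have both NELFE points filled and both SPT5 points open.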

How the data were processed

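Peaks were called by the authors with MACS2 2.1.1.20160309 in broad mode, 1 library against an input, per the file headers, with p-value cutoffs of 0.01 and 0.1, tags extended to 227 bp (NELF) or 206 bp (SPT5) and the larger dataset scaled to the smaller. The submitters' processing notes name Bowtie2, deepTools and mm10. For each region the deposited pileup signal gives average ChIP coverage, and the deposited fold gives the ratio of that coverage to input. Significance is deposited as −log10 p-values and −log10 q-values, averaged over the region. A header line states that no q is computed, yet the q column is filled, and it was used as given.

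Groups and replicate numbers came from the titles. The file headers number the NELF libraries 2 and 3 where the titles have 1 and 2, so a shared number does not show that libraries belong together. Peaks were matched to windows by an overlap of at least 1 bp, ranked by pileup in the full list, and compared in length with exact permutation tests (Python 3.11.15, scipy 1.17.1). Start sites and promoters are RefSeq's on GRCm38.p6, the assembly of mm10. Region merging was tested on simulated intervals. The members, lists and tests were chosen with earlier results of these data known. The named regions follow a rule of nearest percentiles, and the common stretches were added after seeing the data. Alternatives covered the peak chosen, its extent, the q-value, the ranking and the replicates.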

Additional observations from a re-analysis of the deposited data

How the results depend on the processing

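Of 172 alternative values for 46 results, 6 reversed. Of the length differences that kept their direction, 8 moved by over 1.5 times with all peaks summed, 3 with strong peaks summed, 5 without replicate 1 and 4 without replicate 2. Leaving out each replicate number gave -3537 to -4643 bp for NELFB:HA minus SPT5 and -3698 to -5531 bp for NELFE minus SPT5 at Id1. It gave 3880 to -4635 bp for NELFB:HA minus NELFE, 1243 to -3538 bp for NELFB:HA minus SPT5 and 1097 to -2637 bp for NELFE minus SPT5 at Id3, so all 3 changed sign there. For NELFB:HA minus NELFE that change depends on dropping the same number from both antibodies, though numbers are not pairs. The long Id3 peaks were in the first NELFB:HA library (5720 bp) and the second NELFE library (6062 bp). At Id4 leaving out each number gave -416 to -2083 bp for NELFB:HA minus NELFE and -878 to -4239 bp for NELFE minus SPT5, ranges that also depend on the numbering. With strong peaks summed over the window, Id3 reversed to 246.5 bp for NELFB:HA minus SPT5 and 607.5 bp for NELFE minus SPT5. With all peaks summed, Id4 reversed to 1653 bp for NELFB:HA minus NELFE. The cause was not tested. Summed strong peaks gave no value for NELFB:HA at Id4, where 1 library has none.

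With the q-value limit tightened to 1e-05, the libraries with a strong peak fell to 3 of 6 at Id1, 3 at Id4 and 4 at Id3, while Id2 kept all 6, and the share of regions with longer SPT5 peaks moved to 33.6% against NELFB:HA and 41.5% against NELFE. Counting both ends of every gene, an alternative added after seeing the data, gave 11, 13 and 9 of 25 BMP genes. In the same order of NELFB:HA, NELFE and SPT5, it gave 7662, 8958 and 6639 of 21883 protein-coding genes. The replicate block leaves mean differences as they are, for example -4090 bp at Id1 for NELFB:HA minus SPT5 with an SD of paired differences of 782 bp, and it moved no difference across its spread. Same-numbered libraries did not deviate together (correlations of length changes over regions of -0.0227 to -0.00890), so the numbers are not treated as pairs. With 2 libraries per antibody no exact p can fall below 0.333, so test outcomes show nothing of stability.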

Other observations

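The genes of E proteins that ID proteins bind were read from the same libraries. Of 3 on the list, Tcf3 and Tcf12 were in the start site table and Tcf4 was not. Over all protein-coding genes, 29.4% had a strong peak there in both replicates of all 3 antibodies. Tcf3 had strong peaks within 1 kb of its start site in all 6 libraries, with folds of 5.34 and 3.16 in NELFB:HA, 4.83 and 4.20 in NELFE and 3.17 and 2.40 in SPT5. Tcf12 was also strong in all 6, with folds of 3.81 and 2.68, 4.41 and 4.50, and 2.95 and 2.49 in the same order. The SPT5 peaks at Tcf12 were 2193 and 854 bp long and those at Tcf3 1860 and 3060 bp, shorter in each library than the SPT5 peaks at any Id gene. The stem cell markers were mixed. Sox2 and Zfp42 had far longer SPT5 peaks, 19507 and 20255 bp at Sox2 and 27980 and 30000 bp at Zfp42. Nanog had 11464 bp (weak) and 11370 bp (strong), and Pou5f1 had 4548 and 6219 bp, within the range of the Id genes. Esrrb had a weak peak of 1822 bp in the first SPT5 library and none in the second.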
